A study of Mus musculus with 22 samples.

Results

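The 35 genes described here encode the constitutive proteasome: the 14 subunits of its core particle, 17 subunits of its regulatory particle, 2 assembly factors and 2 alternative activators. They were listed by name as parts of this complex, by a rule that holds no measured value, and each was found on the array through the RefSeq accession of its probes. All 35 of 35 listed genes were matched, out of 20018 named genes, and each was read from its brightest probe. All 35 probes were above background in the lung channel on all 22 arrays, and none was saturated.

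Right lung RNA came from female C57BL/6 mice, 8 weeks old, that had received Mitsui7, a multi-walled carbon nanotube, once into the trachea 24 hours earlier. Groups received 18 µg (n = 6 mice), 54 µg (n = 5) or 162 µg (n = 6), and controls (n = 5) received only the vehicle, 0.9% NaCl with 10% bronchoalveolar lavage fluid, by the same route and under the same anaesthesia. The labels give the mice no transgene or deletion. Lung RNA was labelled with Cy5 and hybridised against Cy3-labelled universal mouse reference RNA, a pool from 11 cell lines and values below are log2(Cy5/Cy3) after loess normalization within each array, where 0 is the centre of the array's probes at that intensity and not an equal level in lung and reference. Whole lung was measured, so fewer cells of a type and less RNA per cell cannot be told apart.

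The proteasome is the main protease of the cytosol and nucleus and degrades proteins that carry chains of ubiquitin. Its core particle is a barrel of stacked rings, in which alpha subunits gate the entrance and 3 of the beta subunits, Psmb5, Psmb6 and Psmb7, carry the catalytic sites. The regulatory particle caps the barrel: a ring of ATPases (the Psmc genes) unfolds the substrate, and non-ATPase subunits (most Psmd genes) bind and remove ubiquitin. Interferons exchange the catalytic subunits for immunoproteasome counterparts, and the transcription factor Nfe2l1 raises the genes together when proteasome activity is lost.

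Depth on an array is signal over background. The array median of Cy5 signal over local background ran from 1.45 to 1.90 in controls, from 1.21 to 1.96 at 18 µg, from 1.32 to 1.89 at 54 µg and from 1.16 to 2.29 at 162 µg. Arrays lay on 7 slides, of which 2 held no control. One library stood apart for another cell type: in control replicate 2 the 9 neutrophil markers averaged 1.99 above the control mean on the log2 scale, against -0.83 to -0.25 in the other controls. Counts of passing members, of estimates above 0 and of unadjusted p under 0.05 without that mouse are given below.

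Promoter windows are shown for the 5 members that passed the test at 162 µg and for Psmb5, the chymotrypsin-like catalytic subunit, whose window holds a match to the antioxidant response element near its start. Each window holds 250 bases before and 50 bases after a RefSeq start on GRCm38.p6, read 5′ to 3′ on the gene's strand. Capitals mark every match, on either strand, to 4 motifs: TGACNNNGC (antioxidant response element), CCAAT (NF-Y box), CCGGAAGT (ETS site) and GGGCGG (GC box). A pair of CCAAT matches on opposite strands overlaps in Psmd14 by 2 bases. Psma6 has a second RefSeq window, not shown.
Psmd8 (chr7:29180624-29180923, minus strand): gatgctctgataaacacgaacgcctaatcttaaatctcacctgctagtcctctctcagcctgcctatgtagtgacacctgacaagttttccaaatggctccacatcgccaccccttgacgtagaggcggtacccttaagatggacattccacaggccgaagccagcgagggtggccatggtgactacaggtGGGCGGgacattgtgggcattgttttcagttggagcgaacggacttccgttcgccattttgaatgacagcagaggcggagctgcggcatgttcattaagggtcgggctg
Psmd14 (chr2:61711444-61711743, plus strand): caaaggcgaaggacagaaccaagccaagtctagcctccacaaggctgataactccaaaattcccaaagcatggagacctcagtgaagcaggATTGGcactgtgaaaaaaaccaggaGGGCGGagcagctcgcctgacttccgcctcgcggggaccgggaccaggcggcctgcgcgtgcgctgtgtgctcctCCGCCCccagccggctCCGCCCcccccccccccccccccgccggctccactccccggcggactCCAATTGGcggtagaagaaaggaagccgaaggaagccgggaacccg
Psmc4 (chr7:28050043-28050342, minus strand): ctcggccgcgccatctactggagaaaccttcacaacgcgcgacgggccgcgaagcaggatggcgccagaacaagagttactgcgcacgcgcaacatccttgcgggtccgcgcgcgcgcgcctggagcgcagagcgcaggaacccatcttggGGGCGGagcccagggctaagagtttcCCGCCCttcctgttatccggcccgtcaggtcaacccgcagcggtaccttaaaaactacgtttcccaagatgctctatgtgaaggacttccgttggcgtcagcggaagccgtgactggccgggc
Psmd12 (chr11:107479278-107479577, plus strand): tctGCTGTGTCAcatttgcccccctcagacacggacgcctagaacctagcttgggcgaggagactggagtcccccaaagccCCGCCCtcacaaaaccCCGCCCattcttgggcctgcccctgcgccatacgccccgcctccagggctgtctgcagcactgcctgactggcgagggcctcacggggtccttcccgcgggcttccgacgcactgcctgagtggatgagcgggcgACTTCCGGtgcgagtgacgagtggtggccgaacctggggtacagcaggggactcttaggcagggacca
Psma6 (chr12:55398575-55398874, plus strand): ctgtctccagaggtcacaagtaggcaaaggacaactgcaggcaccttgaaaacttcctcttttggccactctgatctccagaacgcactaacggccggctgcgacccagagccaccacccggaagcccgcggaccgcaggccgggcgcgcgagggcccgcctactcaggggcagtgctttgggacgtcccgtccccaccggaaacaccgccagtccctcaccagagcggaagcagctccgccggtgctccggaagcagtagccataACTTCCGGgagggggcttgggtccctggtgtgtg
Psmb5 (chr14:54617946-54618245, minus strand): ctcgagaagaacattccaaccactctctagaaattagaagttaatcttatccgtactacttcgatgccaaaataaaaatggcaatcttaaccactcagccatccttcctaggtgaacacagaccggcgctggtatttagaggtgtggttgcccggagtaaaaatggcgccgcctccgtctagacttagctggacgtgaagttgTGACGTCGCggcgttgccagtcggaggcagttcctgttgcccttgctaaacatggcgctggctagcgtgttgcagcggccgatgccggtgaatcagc

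Windows were available for 29 of the 35 members. The ETS site was found in the windows of 9 of 29 members (31.0%) and in 3.89% of 32851 windows of all genes. The GC box was found in 18 of 29 members (62.1%) and in 35.7% of all windows. The NF-Y box was found in 11 of 29 members (37.9%) and in 37.4% of all windows, and the antioxidant response element in 5 of 29 (17.2%) and in 12.4% of all windows. The 5 members with the latter were Psmb5, Psmb6, Psmc6, Psmd12 and Psme4. Among the 5 members that passed at 162 µg, Psmd12 and Psma6 held the ETS site, and Psmd8 and Psmc4 held only the GC box. These are matches of letters and no test was made.

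At 162 µg the estimates of 31 of 35 proteasome genes were above 0 after loess normalization, against 15 under median centring and 12 without normalization. In the limma fit of dose and slide, 5 of 35 members passed an adjusted p of 0.05 at 162 µg (Benjamini-Hochberg over all 55681 probes) and all 5 were higher: Psmd8, Psmd14, Psmc4, Psmd12 and Psma6. Over all named genes, 4.15% passed higher and 4.68% passed lower at that dose, and no member passed lower. Among the 8191 named genes within the members' range of mean intensity, 6.46% passed higher. With a change of at least 1.5-fold as well, 2 members passed, Psmd8 and Psmd14, against 2.73% of all named genes. The 17 members with an unadjusted p under 0.05 were all higher, against 11.6% of all named genes that were higher at that level.

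The median log2 fold change of the 35 members stood at 0.10 (18 µg), 0.19 (54 µg) and 0.28 (162 µg), beside medians of -0.01, -0.01 and 0.00 over all named genes. The estimate was above 0 for 28, 33 and 31 members at these doses. The 3 comparisons share the same 5 control mice. No member passed at 18 µg, where 0.659% of named genes passed higher and 1.42% lower, and 11 had an unadjusted p under 0.05, all higher, beside 7.84% of named genes that were higher at that level. No member passed at 54 µg, where 0.18% passed higher and 0.115% lower, and 10 had an unadjusted p under 0.05, all higher, beside 5.19% of named genes. Without control replicate 2, the estimate was above 0 for 23, 30 and 28 members at the 3 doses. An unadjusted p under 0.05 was then found for 7, 4 and 12 members. The share of named genes at that level was not taken in that fit.

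These directions depended on the scaling of the arrays. With each array only centred on its median in place of loess, the member medians at the 3 doses became -0.29, 0.16 and -0.062, while the median of all named genes moved to -0.18, -0.03 and -0.12. Relative to that median, 11, 32 and 24 of 35 members were higher. With the lung channel alone, scaled to its upper quartile, 16, 35 and 33 members were above the median of all named genes. The member median exceeded the median of all named genes at 54 µg and at 162 µg in each alternative fit with all 22 mice, but not at 18 µg.

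**Figure D1:**
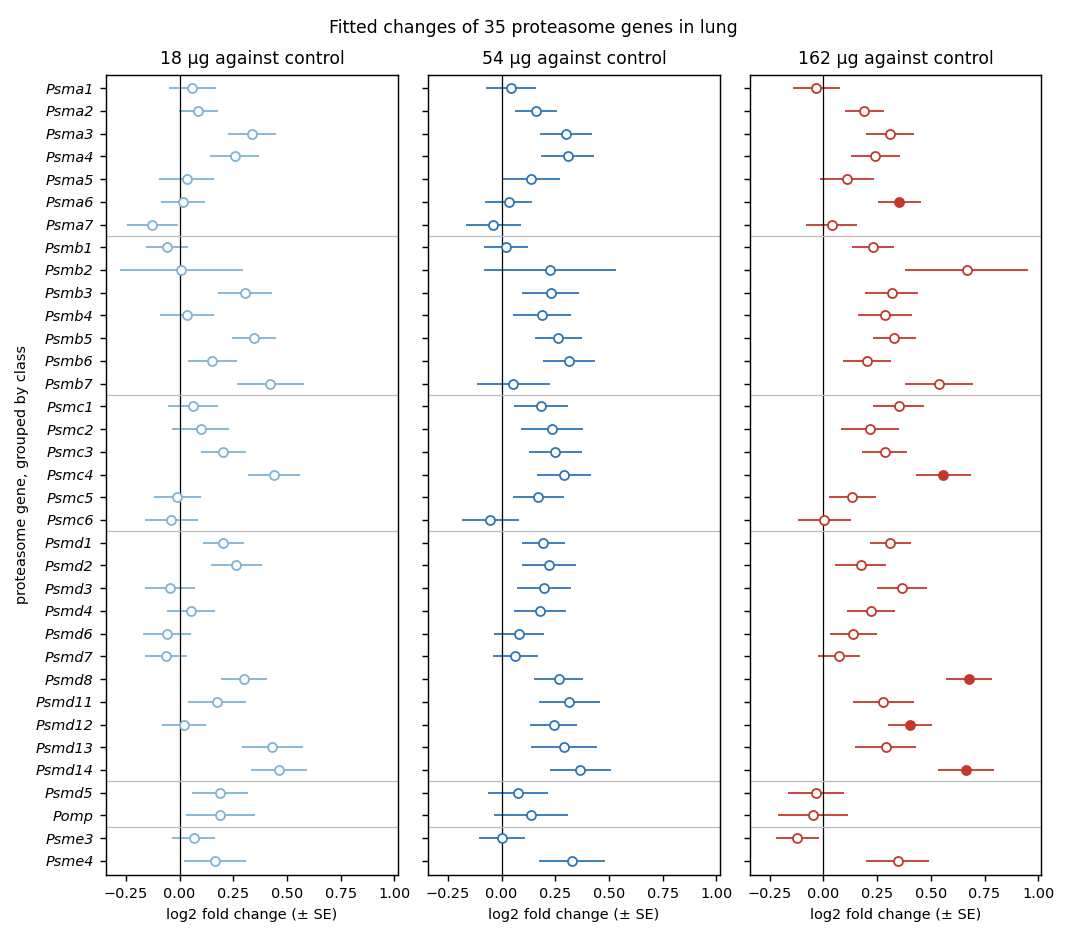
Fitted log2 fold changes of the 35 proteasome genes (vertical axis, grouped by class) against control at 18, 54 and 162 µg (one panel each), with bars of ± SE and filled points for an adjusted p of at most 0.05. The 5 filled points are at 162 µg, and 31 of 35 estimates in that panel are above 0.

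The same pattern was seen mouse by mouse. For each mouse the median deviation of the members from their control means was taken. It was 0.01, -0.07, 0.00, 0.06 and -0.04 in controls 1 to 5. At 18 µg the lowest was -0.02, the median 0.15 and the highest 0.24. At 54 µg the 5 values were 0.15, 0.13, 0.09, 0.18 and 0.28, and at 162 µg the lowest was 0.17, the median 0.23 and the highest 0.42. All mice at 54 and 162 µg were above all controls, whereas the 18 µg group overlapped the controls. These values were taken after loess normalization only. The highest mouse, 162 µg replicate 1, also had the strongest Cy5 signal of the series (2.29). The weakest signal (1.16) was that of 162 µg replicate 6, which was at 0.19. The part of array signal in these values was not tested.

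Slides gave the same direction with unequal sizes. Within the 4 slides that held a control and a 162 µg mouse, the median member difference was 0.49, 0.09, 0.22 and 0.19, with 33 of 35, 20 of 35, 27 of 33 and 26 of 33 members higher. Within the 3 slides that held 54 µg and a control it was 0.16, 0.09 and 0.15. For 18 µg it ran from 0.01 to 0.23 over 4 slides.

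**Figure D2:**
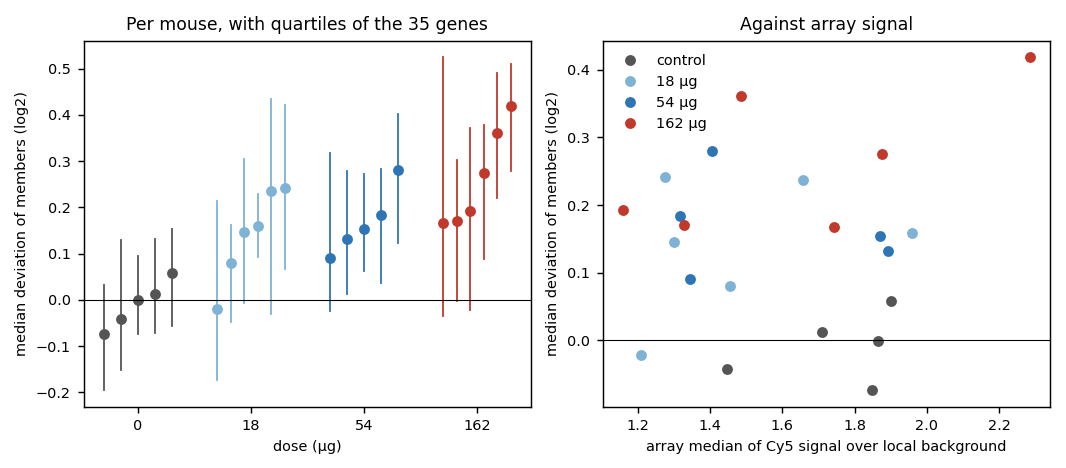
Left, the median deviation of the 35 genes from their control means in each mouse by dose (log2 scale, points), with lines from the lower to the upper quartile of the genes. Right, the same medians against the array median of Cy5 signal over local background. The 162 µg mice lie between 0.17 and 0.42, above controls at -0.07 to 0.06. Signal ran from 1.16 to 2.29 in the 162 µg mice and from 1.45 to 1.90 in controls, and its part was not tested.

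In the regulatory particle, 4 members passed at 162 µg. Among the 11 non-ATPase subunits, all 11 estimates were above 0 at 162 µg (median 0.29) and 3 passed. Psmd8, a subunit of the lid that removes ubiquitin, was -0.76, -0.89, -1.04, -0.82 and -0.86 in controls, as the log2 lung/reference ratio. At 162 µg its lowest value was -0.48, the median -0.23 and the highest -0.16, so that all 6 mice were above all 5 controls. The fitted log2 fold change was 0.68 ± 0.11 (SE), or 1.60-fold, with an adjusted p of 0.00139. At 18 µg (lowest -0.87, median -0.72, highest -0.44) and 54 µg (-0.85, -0.41, -1.18, -0.51 and -0.77) the groups overlapped the controls, and the estimates of 0.30 and 0.27 did not pass.

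Psmd14, the metalloprotease that cuts ubiquitin chains from substrates, read -1.74, -1.20, -1.53, -0.94 and -1.54 in controls. At 162 µg the lowest value was -1.28, the median -0.66 and the highest -0.26, and 4 of 6 mice were above all controls. Its log2 fold change was 0.66 ± 0.13 (SE; adjusted p = 0.00622). The estimates at the lower doses, 0.46 (adjusted p = 0.0855) at 18 µg and 0.37 at 54 µg, did not pass, and none of the 54 µg mice was above all controls. Psmd8 and Psmd14 still passed at 162 µg when any single mouse of the 22 was left out. Psmd8 did not pass on the deposited values (0.46) or with the replicate number as a block (0.61). Neither gene passed under median centring (0.35 for both) or without normalization.

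Psmd12, another lid subunit, was -0.77, -0.94, -0.81, -0.41 and -0.67 in controls. At 162 µg it ran from -0.45 to -0.13 with a median of -0.24, and 5 of 6 mice were above all controls. The change was 0.40 ± 0.10 (SE; adjusted p = 0.0255), and its second probe gave 0.47 (adjusted p = 0.0421). The call was lost on the deposited values (adjusted p = 0.232) and with the lung channel alone (adjusted p = 0.1003). It was lost in 6 of the 22 fits without 1 mouse, up to an adjusted p of 0.1001 without 162 µg replicate 1. Median centring, no normalization, the replicate number as a block and the fit of only the 2 groups ended it as well. The smallest change of the class was that of Psmd7, the partner of Psmd14 in the lid, at 0.07 ± 0.10 (adjusted p = 0.809). Psmd11 was estimated without 6 of 22 mice, whose spots were marked as outliers, at 0.28 ± 0.14.

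Of the 6 ATPases of the base, all 6 estimates were above 0 at 162 µg (median 0.25) and 1 passed. Psmc4 was 0.00, -0.19, -0.05 and 0.20 in 4 controls, its value in control 5 having been marked as an outlier. It was 0.41, 0.75, 0.58, 0.32 and 1.08 in the 5 mice at 162 µg with a value, all above the controls. The fold change was 0.56 ± 0.13 (SE; adjusted p = 0.0183), a call lost with the lung channel alone (adjusted p = 0.503) and without control replicate 2 or 3 or 162 µg replicate 1 or 3 (adjusted p up to 0.0616). This call also ended under median centring, without normalization, with the replicate number as a block and in the fit of only the 2 groups. At 18 µg all 6 mice, from 0.29 to 0.79, were also above all 4 controls, yet the estimate of 0.44 ± 0.12 did not pass (adjusted p = 0.0812).

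Psmc1 was 0.30, 0.34, 0.48, 0.48 and 0.47 in controls and ran from 0.66 to 1.04 at 162 µg, with all 6 mice above the controls. Its change of 0.35 ± 0.12 did not pass (adjusted p = 0.0953), and the second probe gave 0.42 (adjusted p = 0.0559). Psmc6 showed the smallest difference of the ring, 0.00 ± 0.12.

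All 7 beta subunits had estimates above 0 at 162 µg (median 0.32), but none passed the adjusted threshold. An unadjusted p under 0.05 was found for 6 of them, beside 11.6% of all named genes that were higher at that level. Psmb7, the trypsin-like catalytic subunit, was -0.98, -1.02, -1.18, -0.77 and -0.77 in controls. At 162 µg the lowest value was -0.49, the median -0.36 and the highest 0.86, all above the controls. The estimate was 0.54 ± 0.16 with an adjusted p of 0.0533. At 18 µg 5 of 6 mice were above all controls (estimate 0.42 ± 0.16, adjusted p = 0.193), and at 54 µg 4 of 5 (0.05 ± 0.17).

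Psmb5, the chymotrypsin-like subunit whose promoter is shown above, was 0.15, 0.21, 0.36, 0.57 and 0.41 in controls. It ran from 0.47 to 1.03 at 18 µg (median 0.83) and from 0.43 to 1.10 at 162 µg (median 0.73), with 5 of 6 mice above all controls in both groups. The estimates were 0.35 ± 0.10 at 18 µg (adjusted p = 0.0953) and 0.33 ± 0.10 at 162 µg (adjusted p = 0.0664). The second, dimmer probe differed at 18 µg, at -0.02 ± 0.15, and gave 0.31 ± 0.15 at 162 µg.

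Psmb6, the caspase-like subunit, was 0.06, 0.14, 0.25, 0.22 and -0.11 in controls and 0.27, 0.29, 0.17, 0.30 and 0.35 at 54 µg, with 4 of 5 mice above all controls. It overlapped the controls at 162 µg, from -0.21 to 0.50, with an estimate of 0.20 ± 0.11 that was the smallest of the class. Psmb2, with the largest estimate of the ring, 0.67 ± 0.29, was also the least precise member. It ran from -1.18 to 0.05 in controls and from -1.03 to 1.35 at 162 µg. Psmb3 was the 1 member with every mouse above every control at both 54 µg and 162 µg (controls -0.39 to 0.05, 54 µg from 0.12 to 0.35, 162 µg from 0.15 to 0.53), with an estimate of 0.32 ± 0.12 at 162 µg (adjusted p = 0.166).

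Of the 7 alpha subunits, which form the gate, 6 estimates were above 0 at 162 µg (median 0.19) and Psma6 passed. Psma6 was -0.47, -0.54, -0.52, -0.19 and -0.58 in controls and ran from -0.24 to 0.24 at 162 µg, with 4 of 6 mice above all controls. Its change was 0.35 ± 0.10 (SE; adjusted p = 0.0485), just inside the threshold, beside 0.02 at 18 µg and 0.03 at 54 µg. The call was lost in 18 of the 22 fits without 1 mouse (adjusted p up to 0.16, without control replicate 2). It was also lost after normexp background correction (0.0541), with outlier spots kept (0.051), with the lung channel alone (0.134) and on the deposited values (0.161), all as adjusted p. Median centring, no normalization, the replicate number as a block and the fit of only the 2 groups ended it too. Psma3 had a near equal estimate at each dose, 0.34, 0.30 and 0.31, none of which passed. Psma1 was the smallest of the class at -0.03 ± 0.11.

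Of the 4 members outside these groups, 3 had estimates below 0 at 162 µg. Psmd5, a chaperone of base assembly, and Pomp, which matures the core particle, had estimates of -0.03 ± 0.13 and -0.05 ± 0.16 at 162 µg. Pomp had a second probe, which gave 0.11 at 162 µg and 0.56 (adjusted p = 0.0524) at 18 µg, against 0.19 for the brighter one. Psme3, the nuclear activator, was at -0.12 ± 0.10, and Psme4, which caps the core particle without ATP, at 0.35 ± 0.15 (adjusted p = 0.215; without 1 mouse whose spot was marked), while the second probe of Psme4 gave 0.096 at 162 µg and -0.12 at 18 µg. None of the 4 passed at any dose, and the difference between classes was not tested.

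**Figure D3:**
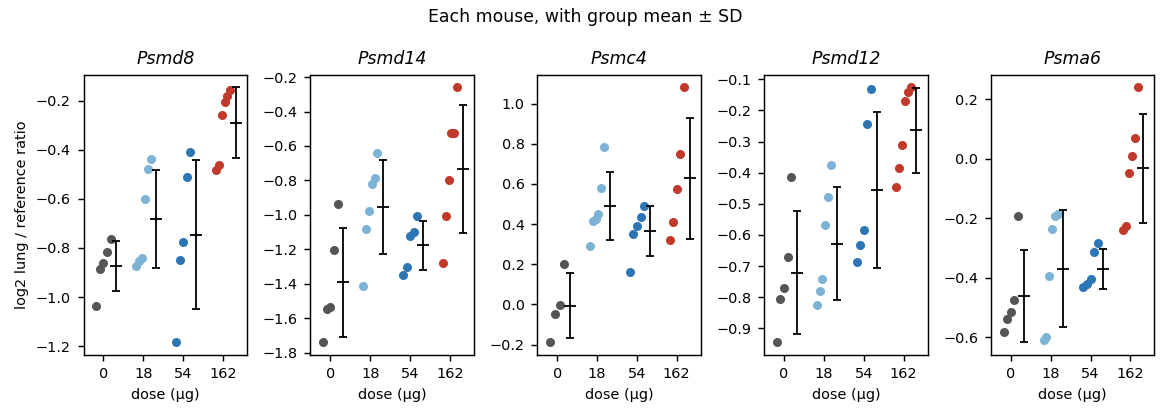
The log2 lung/reference ratio of the 5 members that passed at 162 µg, 1 point per mouse by dose, with black bars for the group mean ± SD. Each panel has its own vertical scale. All 162 µg values lie above all controls for Psmd8 and Psmc4, and the groups overlap for Psmd14, Psmd12 and Psma6.

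Counted by separation of the mice, 1 member (Psmc4) had all mice at 18 µg above all controls, against 1.19% of all named genes. At 54 µg it was again 1 (Psmb3), against 1.34%. At 162 µg there were 5 members (Psmb3, Psmb7, Psmc1, Psmc4 and Psmd8), against 3.12%. No member had all mice of a dose below all controls. The share over all named genes was not taken for that direction, so this count has nothing beside it.

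Between doses, 3 members passed in 162 µg against 18 µg, all higher at the higher dose, against 4.24% of named genes that passed higher. They were Psmd3, a lid subunit, at 0.41, Psmd12 at 0.38 and Psmd8 at 0.38. Psmd3 ran from -0.65 to -0.24 at 18 µg and from -0.26 to 0.39 at 162 µg. No member passed in 54 µg against 18 µg or in 162 µg against 54 µg, where 0.025% and 0% of named genes passed in either direction. An unadjusted p under 0.05 was found there for 2 members (1 higher and 1 lower) and 6 members (all higher), beside 2616 and 2087 of the 20018 named genes in either direction. Across the 3 estimates, 14 of 35 members grew with each step of dose, 21 were largest at 162 µg, 6 at 54 µg and 8 at 18 µg.

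The counts rested on few mice. At 162 µg, 2 members passed without control replicate 2, the mouse with the high neutrophil markers, and 2 without 162 µg replicate 1; 3 passed without control replicate 3 and 8 without 54 µg replicate 5. In 162 µg against 18 µg the count fell to 0 without 18 µg replicate 2, 3, 4 or 6 and without 162 µg replicate 1 or 5, and to 1 without control replicate 1, 18 µg replicate 1 or 5, or 162 µg replicate 2, 3, 4 or 6. At 18 µg it became 3 without 54 µg replicate 5, and 1 without 54 µg replicate 3, 162 µg replicate 4 or 162 µg replicate 6.

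The immunoproteasome is the interferon-induced form. None of its 3 catalytic subunits (Psmb8, Psmb9 and Psmb10) or the activator subunits Psme1 and Psme2 passed at any dose. At 18 µg all 5 estimates were above 0 (median 0.24, beside 0.10 over the members), and at 54 µg 2 of 5 (median -0.04). In 162 µg against 18 µg all 5 were below 0 and none passed. An unadjusted p under 0.05 was found there for 3 of them, beside 4506 of the 20018 named genes in either direction. At 162 µg the estimates were 0.10 ± 0.12 for Psmb8, -0.36 ± 0.14 for Psmb9 (adjusted p = 0.162) and -0.23 ± 0.13 for Psmb10, with 0.01 and 0.02 for Psme1 and Psme2. Each constitutive catalytic subunit was therefore set against the counterpart that replaces it, as the difference of their log2 ratios within an array, in 9 exact two-sided permutation tests chosen after the values were seen.

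The 1 difference that passed after adjustment over the 9 tests was Psmb7 minus Psmb10 at 162 µg. The 5 controls averaged -2.22 ± 0.38 (SD) and the 6 mice at 162 µg averaged -1.16 ± 0.65 (SD), a shift of 1.06 with no overlap (exact permutation p = 0.00433, adjusted p = 0.039), and was higher in 4 of 4 slides that held both. The permutation took no account of slide; with slide in the fit the difference of the 2 genes' changes was 0.77, a value with no test. Without normalization the shift was 0.98 with an adjusted p of 0.117, and on the deposited values 1.12 with 0.0584. Psmb6 minus Psmb9 shifted by 0.58 at 162 µg (exact permutation p = 0.0584, adjusted p = 0.175), with 5 of 6 mice above all controls and 162 µg replicate 6 below them, and by 0.45 at 54 µg (exact permutation p = 0.0317, adjusted p = 0.143). Psmb5 minus Psmb8 shifted by 0.16, 0.23 and 0.28 at the 3 doses, none of which passed (lowest exact permutation p = 0.278). Leaving out a mouse moved the Psmb7 minus Psmb10 shift between 0.82 and 1.17, and 10 of the 22 omissions ended its adjusted call.

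**Figure D4:**
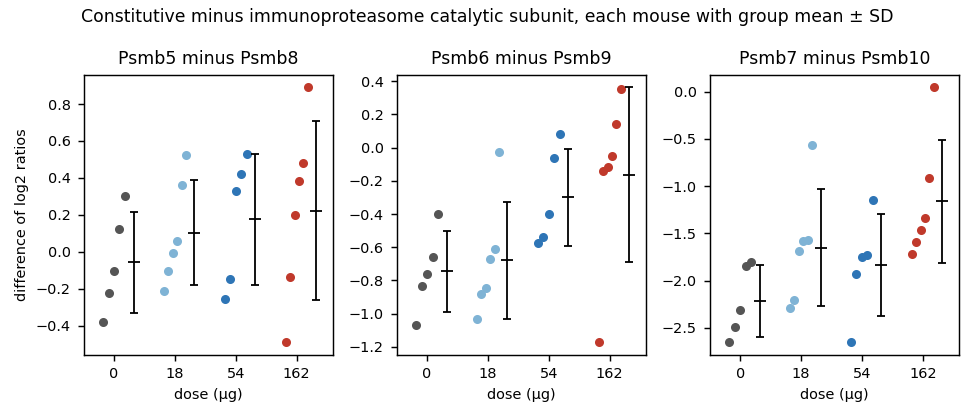
Difference of log2 ratios between each constitutive catalytic subunit and its immunoproteasome counterpart, 1 point per mouse by dose (µg), with black bars for the group mean ± SD. Each panel has its own vertical scale. For Psmb7 minus Psmb10 the 162 µg mice lie above all controls, with a shift of 1.06, and the other 2 pairs overlap the controls.

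Genes that act with the proteasome were mixed. Of 13 proteasome-associated proteins, 2 passed higher at 162 µg and 1 lower (median 0.06), beside 4.15% and 4.68% of all named genes. Adrm1, a ubiquitin receptor of the regulatory particle, changed by 0.51 ± 0.12 (adjusted p = 0.0195) and Ubqln1, which shuttles ubiquitinated proteins to the proteasome, by 0.49 ± 0.10 (adjusted p = 0.00988). Its relative Ubqln2 fell by 0.46 (SE 0.12, adjusted p = 0.0314). Of the 22 fits that each omitted a mouse, 8 ended the Ubqln2 call (adjusted p up to 0.118), 4 that of Adrm1 (adjusted p up to 0.0728) and 0 that of Ubqln1. Of 6 other assembly chaperones measured, Psmd9 passed at 0.42 ± 0.11 (adjusted p = 0.0308; lost in 6 of 22 fits without 1 mouse, up to 0.102, and for the median over its probes, 0.25), and Paaf1 was not matched to the array.

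In the complex of the ATPase Vcp, which extracts ubiquitinated proteins, 1 of 6 genes passed higher at 162 µg, beside 4.15% of all named genes. Ufd1, its ubiquitin-binding cofactor, rose by 0.99 ± 0.15 (adjusted p = 0.000839), while its partner Nploc4 was at 0.33 ± 0.12 and Vcp itself at 0.10 ± 0.10. None of the 6 ubiquitin and ubiquitin-activating genes passed (median -0.09). Of the 4 regulators of proteasome genes none passed: Nfe2l1 was at 0.39 ± 0.14, 0.25 ± 0.15 and 0.30 ± 0.14 over the 3 doses, and Nfe2l2, the factor of the antioxidant response element, at -0.34 ± 0.19, -0.13 ± 0.20 and -0.28 ± 0.19. The tissue-specific subunits Psma8 of testis and Psmb11 of thymus were not above background. Adrm1 (0.55), Ufd1 (0.64), Psmf1 (0.59), an inhibitor of the core particle, and Psmd9 (0.38) also passed in 162 µg against 18 µg. The calls of Psmf1 and Psmd9 in that contrast were lost in 17 and 16 of the 22 fits without 1 mouse.

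Markers of other cell types differed from controls as well, at 18 µg as at 162 µg for some. The 9 neutrophil markers had a median log2 fold change of 0.81 at 162 µg, with 1 passing, and their mean per mouse ran from -0.83 to 1.99 in controls and from -0.38 to 2.18 at 162 µg. The 9 ciliated cell markers had a median of -0.92, with 3 passing lower, and ran from -0.23 to 0.15 in controls and from -2.02 to -0.32 at 162 µg. At 18 µg their median was -0.99, with all 9 estimates below 0 and 1 passing, and the mice ran from -1.88 to 0.094. Of 7 monocyte and recruited macrophage markers, 2 passed higher at 162 µg (median 0.51) and 1 at each lower dose. The list was split: 3 of the 7 estimates were below 0 at 162 µg (lowest -0.57). At 18 µg 4 were below 0 (median -0.06), and at 54 µg 2 (median 0.23). The mean per mouse of 7 alveolar macrophage markers ran from -0.22 to 0.23 in controls and from 0.18 to 0.39 at 162 µg. Estimates of the single markers at 162 µg lay far apart, from -1.50 to 1.51, with 6 above 0 and 1 passing higher. For B cell markers the mean per mouse ran from -0.28 to 0.40 in controls and from -0.98 to -0.04 at 162 µg. All 14 proliferation genes had estimates above 0 at 18 µg (median 0.82), 5 of them passing. At that dose 28 of 35 proteasome genes were above 0 and none passed. At 54 µg 8 of the 14 were above 0 (median 0.04). At 162 µg 13 were above 0 and none passed, with a median of 0.25 beside 0.28 over the proteasome genes. All measured markers of these lists were above background, none being at 0, and their part in the proteasome values was not tested.

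The SD between mice of 1 group ran from 0.14 for Psma2 to 0.54 for Psmb2 over the members. Its median was 0.21, beside 0.28 over named genes above background, on the log2 scale. In control lung their mean normalized ratios ran from -1.39 for Psmd14 to 1.27 for Psme3 (median -0.36). These ratios do not rank lung against reference, since 0 was set by the normalization and no array had the dyes exchanged.

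**Figure D5:**
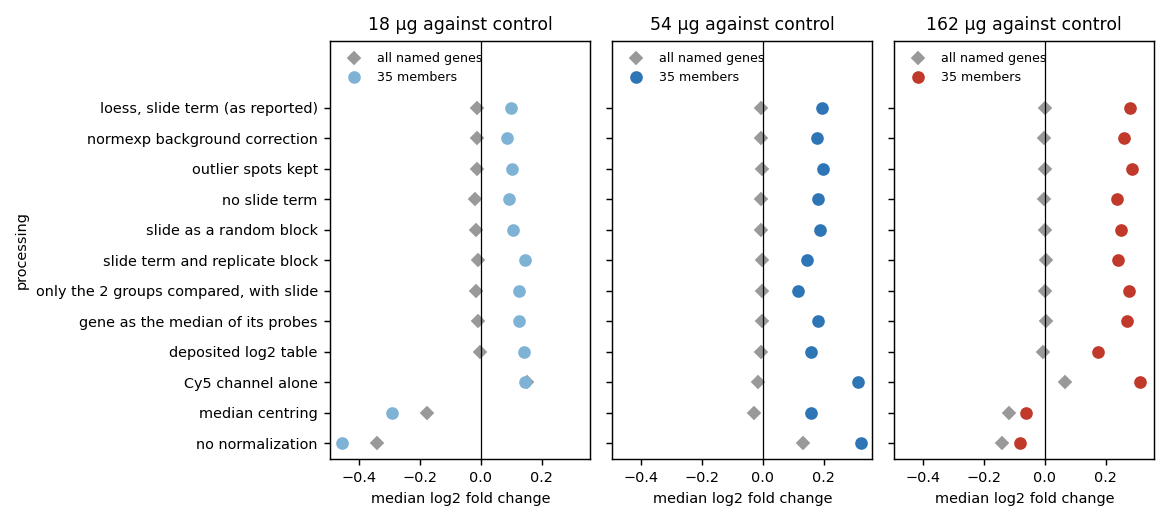
Median log2 fold change against control of the 35 proteasome genes (circles) and of all named genes (grey diamonds) for each way of processing (vertical axis), 1 panel per dose. The circles lie right of the diamonds at 54 and 162 µg in every row, by 0.28 in the top row at 162 µg, but not at 18 µg under the lung channel alone, median centring and no normalization.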

How the data were processed

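Per the labels, total RNA of each lung (Cy5) and reference RNA (Cy3) was hybridised to 2-colour Agilent mouse arrays. The authors deposited scanner files holding the median signal intensity of each spot and local background in both channels, and a table of log2 ratios normalized by the authors. Here log2(Cy5/Cy3) of the median intensities was taken without background subtraction, spots marked as outliers were left out, and ratios were loess-normalized within each array (span 0.3). Replicate spots were reduced to their median, giving 55681 probes, of which 26413 were named through RefSeq accessions (GRCm38.p6), for 20018 genes. A probe was above background where Cy5 exceeded the trimmed mean of 308 negative control spots by 3 trimmed SD (5% trimmed at each end, 0.05) on a share of at least 0.8 of a group's arrays.

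Groups came from the labels. Dose and slide were fitted with limma 3.58.1 (R 4.3.3), with Benjamini-Hochberg adjustment over all probes. Each mouse was a replicate, and their number limits precision. In a probe with missing spots, the mice concerned were dropped, and a contrast was kept only where it remained estimable. The script was tested on simulated data. The members, gene lists and tests were chosen with earlier results of these data known. In full are given the 3 catalytic subunits, in each class the 2 members with the largest change at 162 µg and the smallest, members past both thresholds, and outside the list the immunoproteasome, Nfe2l1, Nfe2l2 and passing genes; Psmb3, Psmd3, Psmd11 and Psmd12 were added after their values were seen. Sequences come from RefSeq. Alternatives tried are in the closing section.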

Additional observations from a re-analysis of the deposited data

Results flagged for a closer look

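Among 68 groups of mice examined for the members given in full, 5 held a mouse far from the others by Dixon's test, where chance marks about 1 in 20 (log2 lung/reference ratios). Psmb7 was 0.86 in 162 µg replicate 6, with the next mouse at -0.30. Psma6 was -0.19 in control replicate 4, with the next at -0.47. Psmc1 was -0.13 in 18 µg replicate 1, with the next at 0.57. Psmc6 was -0.90 in 54 µg replicate 4, with the next at -0.55. Psmd5 was -0.45 in control replicate 1, with the next at -0.75.

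The effects of 162 µg and 18 µg differed by the test of the difference itself for 7 genes, all higher at 162 µg: Psmd3 (0.41), Psmd8 (0.38), Psmd12 (0.38), Psmd9 (0.38), Adrm1 (0.55), Psmf1 (0.59) and Ufd1 (0.64), as log2 differences. Over all named genes, 4.24% passed higher in this contrast. Of the 7, Adrm1 kept an adjusted p of at most 0.0317 without any single mouse. Of the 22 fits that each omitted a mouse, 17 ended the call of Psmf1, 16 that of Psmd9 and 15 that of Psmd8. The call of Psmd3 ended in 14, that of Psmd12 in 8 and that of Ufd1 in 1.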

How the results depend on the processing

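The 5 members that passed at 162 µg became 0 under median centring and under no normalization, 2 with the lung channel alone, on the deposited log2 table, in a fit of only the 2 groups compared, and with at least 1.5-fold required as well, 8 with p adjusted over probes above background and 10 with a gene taken as the median of its probes. With slide as a random block 1 member passed at 18 µg, Psmc4. The 3 members past the threshold in 162 µg against 18 µg became 0 under median centring, no normalization, the lung channel alone, the deposited table, no slide term and the fit of only those 2 groups, and 5 with a gene taken as the median of its probes. The member median at 18 µg reversed to -0.29 under median centring and -0.45 under no normalization, and was 0.16 within slides. At 54 µg it was 0.32 under no normalization, 0.31 with the lung channel alone, 0.11 in the fit of only 2 groups and 0.13 within slides. At 162 µg it reversed to -0.062 under median centring and -0.081 under no normalization, and was 0.17 on the deposited table. The cause was not tested. Adding the quantile step after loess leaves the ratios as they are by construction.

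The labels give the groups the same replicate numbers. Of 31 same-numbered pairs, 20 correlated above 0.1 in their deviations (median 0.17), and 12 of 22 mice correlated best with their own number. Some same-numbered mice shared a slide, and mice on the same slide correlated too (median 0.26, against -0.05 on other slides). Slide was not removed first, so these values cannot decide whether the numbers pair the mice. The main fit did not pair them. With the replicate block beside the slide term, 1 member passed at 18 µg and 1 at 162 µg (Psmd14 both times), 0 passed in 162 µg against 18 µg, and the median at 54 µg was 0.14. Without each mouse in turn, the counts ran from 0 to 3 at 18 µg, from 2 to 8 at 162 µg and from 0 to 4 in 162 µg against 18 µg, and the median at 162 µg from 0.21 to 0.29. Psmb5 minus Psmb8 and Psmb6 minus Psmb9 at 18 µg reversed to -0.077 and -0.013 on the deposited table, and the latter ran from -0.063 to 0.15 without single mice; these tests and their alternatives were added after seeing the data. Apart from the fits without 1 mouse, 82 values of the counts and medians stayed within 1.5 times or within the spread, 25 moved and 4 reversed. Some of the 82 could not have changed: those of the quantile step, and the medians with p adjusted over probes above background. Counts of 0 that remained 0 were also scored as staying. The 82 are therefore no measure of how firm the results are. Arrays with weak Cy5 signal, down to 1.16 times background, limit the dim probes most.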
